A study of Mus musculus with 157 samples.

Results

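The genes described here are 8 genes of simple (single-layered) epithelium: the keratin genes Krt7, Krt8, Krt18 and Krt19 and the claudin genes Cldn3, Cldn4, Cldn6 and Cldn7. They were chosen by symbol, and for each the transcript with the most raw reads on average was used in a table. All 8 were found in each of the 4 deposited tables, among 23643 to 23887 gene symbols. E14 is a line of wildtype mouse embryonic stem cells kept in culture on gelatin, with serum and leukaemia inhibitory factor. Untreated cells (0 h) were compared with cells given 1 µM retinoic acid (RA), a vitamin A derivative that makes them differentiate, for 2, 4, 6, 24, 48 or 72 h. RNA polymerase II (Pol II) was measured by ChIP-seq on crosslinked chromatin, which counts the DNA fragments that an antibody brings down. The antibodies were to the N-terminal domain (NTD, total Pol II), to Pol II phosphorylated on serine 5 of its C-terminal repeat (Ser5p, enriched at promoters) and to Pol II phosphorylated on serine 2 (Ser2p, enriched along transcribed genes). NTD and Ser5p reads were counted in a window around the transcription start site (TSS) that reaches 1 kb to each side, and NTD and Ser2p reads over gene bodies. NTD had 2 libraries at 0, 2, 24 and 72 h and 3 at 4, 6 and 48 h, while Ser5p and Ser2p had 3 at 2 h as well. The design is a single treatment in a single line, with no vehicle control or second clone among the groups used, and bulk chromatin, in which a change in the share of cells and a change per cell cannot be told apart.

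Keratins are the intermediate filament proteins of epithelial cells. A type II keratin (Krt7 and Krt8) pairs with a type I keratin (Krt18 and Krt19), and Krt8 with Krt18 is the pair made by the first epithelia of the embryo, trophectoderm and primitive endoderm among them. Claudins are membrane proteins that form the strands of tight junctions and set which ions and solutes pass between cells. Cldn3, Cldn4, Cldn6 and Cldn7 are expressed in simple epithelia, and Cldn6 is known from early embryonic epithelium and pluripotent cells.

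In RefSeq (GRCm38.p6, the assembly that mm10 stands for) Krt8 lies at chr15:101996711-102004342 and Krt18 at chr15:102028216-102032026, with starts 23874 bp apart on opposite strands. Krt7 lies on the same chromosome at chr15:101412403-101427806 and Krt19 at chr11:100140810-100145926. Cldn4 (chr5:134945123-134946934) and Cldn3 (chr5:134986214-134987476) also lie side by side on opposite strands, with starts 39280 bp apart. Cldn6 lies at chr17:23679348-23682446 and Cldn7 at chr11:69964779-69967886. The start of Tnfrsf12a, a receptor of the tumour necrosis factor receptor superfamily, is 1916 bp from that of Cldn6 on the other strand, so the 2 kb windows of these genes share 84 bp.

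Promoter sequences, from 250 bases before to 30 bases after the annotated start, are shown for Krt8 and Krt18, the pair that gained Pol II, and for Cldn6 and Cldn4, the claudins with a single call each. Capitals mark matches to 7 motifs searched on both strands, and each sequence is from RefSeq, 5′ to 3′ on the gene's own strand, in GRCm38.p6 (Krt8 chr15:102004313-102004592, minus strand, Krt18 chr15:102027966-102028245, plus strand, Cldn6 chr17:23679115-23679394, plus strand, Cldn4 chr5:134946905-134947184, minus strand).
Krt8 promoter: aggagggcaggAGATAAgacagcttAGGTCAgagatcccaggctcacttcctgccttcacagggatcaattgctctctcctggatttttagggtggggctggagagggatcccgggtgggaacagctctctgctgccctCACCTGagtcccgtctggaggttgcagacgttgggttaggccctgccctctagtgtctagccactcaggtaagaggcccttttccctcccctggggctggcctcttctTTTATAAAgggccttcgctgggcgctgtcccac
Krt18 promoter: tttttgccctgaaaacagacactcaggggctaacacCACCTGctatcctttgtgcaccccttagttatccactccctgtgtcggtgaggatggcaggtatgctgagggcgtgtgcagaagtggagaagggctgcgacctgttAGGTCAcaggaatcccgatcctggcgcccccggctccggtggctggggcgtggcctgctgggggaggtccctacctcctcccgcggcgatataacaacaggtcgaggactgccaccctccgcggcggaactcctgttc
Cldn6 promoter: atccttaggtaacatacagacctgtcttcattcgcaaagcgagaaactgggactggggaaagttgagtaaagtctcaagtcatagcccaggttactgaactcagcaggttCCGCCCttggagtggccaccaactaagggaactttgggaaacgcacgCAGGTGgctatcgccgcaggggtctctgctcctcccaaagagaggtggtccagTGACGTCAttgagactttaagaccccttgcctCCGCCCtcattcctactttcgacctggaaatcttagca
Cldn4 promoter: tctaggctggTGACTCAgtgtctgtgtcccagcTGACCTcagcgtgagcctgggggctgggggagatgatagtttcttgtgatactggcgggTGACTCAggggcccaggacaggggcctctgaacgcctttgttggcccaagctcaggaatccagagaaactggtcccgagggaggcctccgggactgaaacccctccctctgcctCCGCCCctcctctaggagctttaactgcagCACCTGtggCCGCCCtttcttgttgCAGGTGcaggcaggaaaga

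The RefSeq promoter table held 8 windows for 7 of the genes, with 2 starts for Cldn7. The TATA box (TATAAA) was found in the Krt8 window alone, as 2 overlapping matches on both strands whose first bases lie at positions -3 and -1 from the annotated start, and 13.1% of 32851 promoters hold it. The nuclear receptor half-site (AGGTCA), the element that RA receptors bind in pairs, was in 6 of the 8 windows against 15.3% of all promoters. Its matches were single, with the first base at position -108 in Krt18, -225 in Krt8 and -217 in Cldn4 (the start is +1), and Cldn6 had none. The half-site was also in the Krt7 window (first base at position 16) and in both Cldn7 windows (-40 and -31), genes without a call. The E-box bound by Snail and Zeb factors (CAGGTG) was in 6 windows, those of Krt8, Krt18, Cldn6 and Cldn4 among them, against 19.1% of all. The GC box (GGGCGG, 34.7% of all) was in 5 windows but not in those of Krt8 and Krt18. The AP-1 site (TGANTCA, 7.46%) occurred at 2 places in the Cldn4 window, the GATA site (AGATAA, 10.7%) in the Krt8 window, and the cyclic AMP response element (TGACGTCA, 1.74%) in the Cldn6 window and in 1 of the Cldn7 windows. In that Cldn7 window it overlaps a half-site by 1 base. A match describes letters and not a bound site.

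NTD totalled 1088159 to 3210580 reads per library around start sites and Ser5p 1504737 to 3347830, against 11684907 to 25696364 (NTD) and 18045745 to 28745658 (Ser2p) over gene bodies. Levels are given as CPM, read counts over the scaled library total per 1e6 reads. A window of the 8 genes held few reads: on average 16.1 per NTD library at Krt7, 54.8 at Krt18 and 111 at Cldn4. The 10 stem cell markers summed to 794 to 1121 CPM in the NTD start-site libraries at 0 h and to 460.2 to 581 CPM at 72 h. At 0 h 10 trophoblast markers summed to 86.1 to 91.9 CPM and 10 markers of primitive and parietal endoderm to 95.6 to 117. No level that would count as a mismatch with the labelled cell type was set. At 72 h the libraries of replicate 3 stood above those of replicate 1 for these genes. NTD was higher in replicate 3 at 8 of 8 start sites, by 1.09 to 2.66 times, where 49.7% of 33108 transcripts were. It was higher over 8 of 8 gene bodies, by 1.49 to 2.87 times, where 56.1% of transcripts were. Ser5p was higher in replicate 3 at 7 of 8 genes and Ser2p over 6 of 8. Reference genes, Actb among them, lay apart between the 72 h libraries too. They summed to 1695 and 2753 CPM in NTD at the start site and to 1603 and 2770 in Ser5p. Over bodies their sums were 363 and 726 in NTD and 171 and 318 in Ser2p. A gap between these libraries is thus not particular to the 8 genes. The 72 h changes of the 8 genes and the list counts are therefore also given without the replicate 3 library of 72 h. The lone library left is then assumed to vary like the other groups. The plot of libraries at 0 and 72 h shows both.

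In the authors' deposited FPKM over gene bodies, the claudins carried more total Pol II per length than the keratins in untreated cells. FPKM divides by gene length and library size (given as mean ± SD, n = 2). The claudin genes span 1263 to 3108 bp and the keratin genes 3811 to 15404 bp, and the body window is not stated. The start-site window reaches 1 kb into a gene, a larger part of a short gene than of a long one. Body counts may therefore hold some of the same reads, and more so in the claudins. At 0 h NTD was highest over Cldn4 (8.05 ± 1.53 FPKM), then over Cldn7 (3.97 ± 0.834), Cldn3 (2.55 ± 0.205) and Cldn6 (1.33 ± 0.00369). The keratins followed with Krt18 (1.09 ± 0.0445), Krt8 (0.912 ± 0.0521), Krt19 (0.624 ± 0.0246) and Krt7 (0.613 ± 0.0209). Krt19 and Krt7 did not differ beyond their spread. At 72 h Krt18 had the highest mean (7.34 ± 4.03), above Cldn4 (6.37 ± 4.51) and Cldn7 (4.46 ± 2.52), but with these spreads the order of the top 3 is not resolved. In Ser2p FPKM, Krt18 went from 0.815 ± 0.0817 at 0 h, within the spread of Krt19, Krt8 and Krt7, to 3.45 ± 1.31 at 72 h, beside Cldn4 (3.47 ± 0.650) and Cldn7 (3.63 ± 1.90). Among all symbols, the mean NTD level at the start site of Krt18 stood at percentile 49.5 at 0 h and 89.5 at 72 h. That of Cldn4 stood at 84.6 and 78.5. In these start-site windows, all of the same width, the claudins did not all stand above the keratins at 0 h. Mean NTD was 52.5 CPM at Cldn4, 23.4 at Cldn3, 14.4 at Cldn7 and 9.87 at Cldn6. It was 13.7 at Krt8, 11.8 at Krt18, 8.58 at Krt19 and 7.70 at Krt7.

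Through the first 6 h of RA no member passed the test in any table (edgeR quasi-likelihood, Benjamini-Hochberg adjusted p under 0.05 over all transcripts of a table), and DESeq2 called none of those to which it gave an adjusted p. These were, at 2, 4 and 6 h, 8, 6 and 6 of the 8 in NTD at the start site, 1, 1 and 2 in Ser5p, 8, 8 and 6 in NTD over gene bodies and 0, 3 and 7 in Ser2p. At an unadjusted p under 0.05 Krt8 was lower at 6 h in NTD at the start site, and Cldn4 higher at 2 and 6 h in Ser5p and at 2 and 4 h in Ser2p. Of all transcripts, 0.320%, 0.709% and 0.728% were called at 2, 4 and 6 h in NTD at the start site, 0.0305%, 0.0153% and 0.0549% in Ser5p, 0%, 0.0188% and 0.0691% in NTD over gene bodies, and 0%, 0% and 0% in Ser2p. Later, every member called was higher than at 0 h. In NTD at the start site 1 of 8 was called at 24 h (Krt18) and at 48 h (Krt18), where 1.52% and 9.58% of all transcripts were, and 3 of 8 at 72 h (Krt8, Krt18 and Cldn6), against 9.13%. In Ser5p none was called at 24 or 48 h (background 6.73% and 12.2%). DESeq2 gave an adjusted p to 2 and 6 of the 8 and called none. Unadjusted p was under 0.05 for Krt8 and Cldn6, both higher, at 24 h. At 48 h it was for Krt18 and Cldn3, both higher, and for Cldn7, which was lower. At 72 h Ser5p had 2 of 8 (Krt8 and Krt18), against 8.95%. In NTD over gene bodies none was called at 24 h (0.270%, where DESeq2 called 1 member), with unadjusted p under 0.05 for Krt8, Krt18, Cldn3 and Cldn6, then 1 at 48 h (Krt18, 3.75%) and 3 at 72 h (Krt8, Krt18 and Krt19, 4.52%). In Ser2p 2 were called at 24 h (Krt18 and Cldn4, 13.0%), 1 at 48 h (Krt18, 1.76%) and 1 at 72 h (Krt18, 1.62%). For each antibody the 24 h libraries were replicates 2 and 3 and the 0 h libraries replicates 1 and 4. These times share no replicate number, so a change at 24 h cannot be told apart from a difference between sets of replicates. The F test over all times called Krt8, Krt18 and Cldn6 in NTD at the start site (14.9% of all transcripts), Krt8 and Krt18 in Ser5p (14.5%) and in NTD over gene bodies (7.81%), and Krt18 in Ser2p (7.53%). Whether replicate libraries are from separate cultures is not stated in the labels, so these p-values measure the spread between libraries, which may be technical. With the replicate number as a block in the edgeR fit, the 24 h calls of Krt18 in NTD at the start site and in Ser2p were lost. So were those of Cldn4 in Ser2p at 24 h, and of Cldn6 and Krt19 at 72 h. The values are given at the end.

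**Figure D1:**
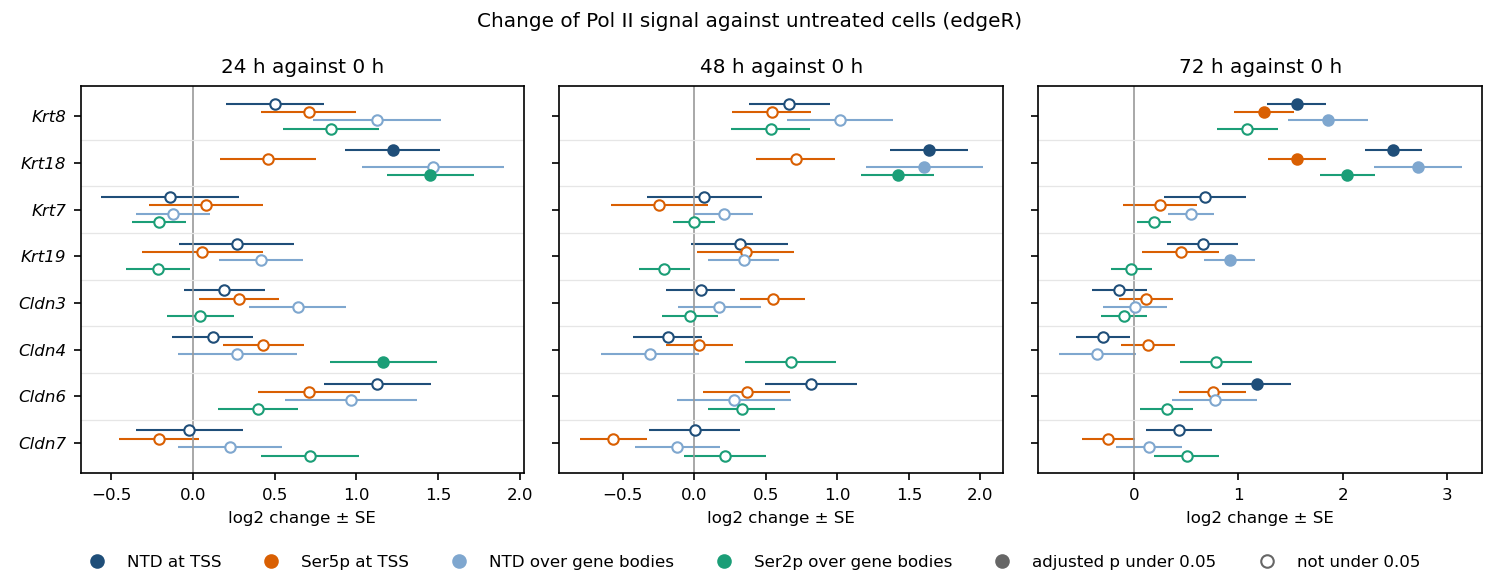
Log2 change (horizontal axis, ± SE, edgeR) of each gene against 0 h at 24, 48 and 72 h, in the 4 tables, with filled points where the adjusted p was under 0.05. Krt18 is filled in all 4 tables at 72 h, where its log2 change runs from 1.56 to 2.72, and the claudins lie nearer to 0, with 1 filled point for Cldn6 and 1 for Cldn4.

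Total Pol II rose at the start site of Krt18, the type I partner of the pair. NTD was 10.8 and 12.8 CPM in the 2 libraries at 0 h, 11.3 and 19.3 at 2 h, 12.9, 12.6 and 13.9 at 4 h, then 10.95, 17.2 and 15.6 at 6 h. It was 31.1 and 24.8 CPM at 24 h, 29.2, 37.2 and 46.5 at 48 h, then 48.9 and 81.8 at 72 h. Every library from 24 h on lay above every earlier one, and both 72 h libraries lay above all others. The log2 change was 1.22 ± 0.29 at 24 h (adjusted p = 0.0140), 1.64 ± 0.27 at 48 h (adjusted p = 2.59e-05) and 2.49 ± 0.27 at 72 h (adjusted p = 1.00e-08, a 5.61-fold rise). Between 6 and 24 h it changed by 0.91 ± 0.25 (adjusted p = 0.175), between 24 and 48 h by 0.42 ± 0.24 (adjusted p = 0.465) and between 48 and 72 h by 0.84 ± 0.22 (adjusted p = 0.0555). None of these single steps passed for any of the 8 genes, where 0.0690%, 1.15% and 0.543% of all transcripts did, and at an unadjusted p under 0.05 there were 3, 0 and 2 of the 8. Within replicate 1 alone, Krt18 stood 4.51 times higher at 72 h than at 0 h. The 48 and 72 h calls were kept under every alternative tried, at 72 h with a change of 2.05 (adjusted p = 1.79e-05) without replicate 3 of that time. The 24 h call was lost without either 0 h library or either 24 h library, at log2 changes between 1.05 and 1.38 and adjusted p between 0.0935 and 0.131, and DESeq2 gave 1.26 (adjusted p = 0.0577).

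At the start site of Krt8, the type II partner, NTD was 9.81 and 17.5 CPM at 0 h, between 6.67 and 16.6 at 2 to 6 h, 19.8 and 19.9 at 24 h, 17.9, 23.7 and 25.0 at 48 h, then 29.5 and 50.5 at 72 h. The 0 h library of replicate 4 was near the levels of 24 h and the 48 h library of replicate 1, and only the 72 h libraries stood clear of all others. The log2 change was 0.50 ± 0.30 at 24 h (adjusted p = 0.443), 0.66 ± 0.28 at 48 h (adjusted p = 0.142) and 1.56 ± 0.28 at 72 h (adjusted p = 1.06e-04), a 2.94-fold rise. From 48 to 72 h it was 0.89 ± 0.24 (adjusted p = 0.0869). Without the 72 h library of replicate 3 the change was 1.09, and the call was not kept. Without that library and the 0 h library of replicate 4, the higher of the controls, the change was 1.58. Earlier results of these data had put that control in doubt, on grounds not shown here. Across the 17 NTD libraries the start-site levels of Krt8 and Krt18 had a Pearson r of 0.88 on log2 CPM, as a description of libraries that share time and depth. The windows of the pair do not overlap.

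**Figure D2:**
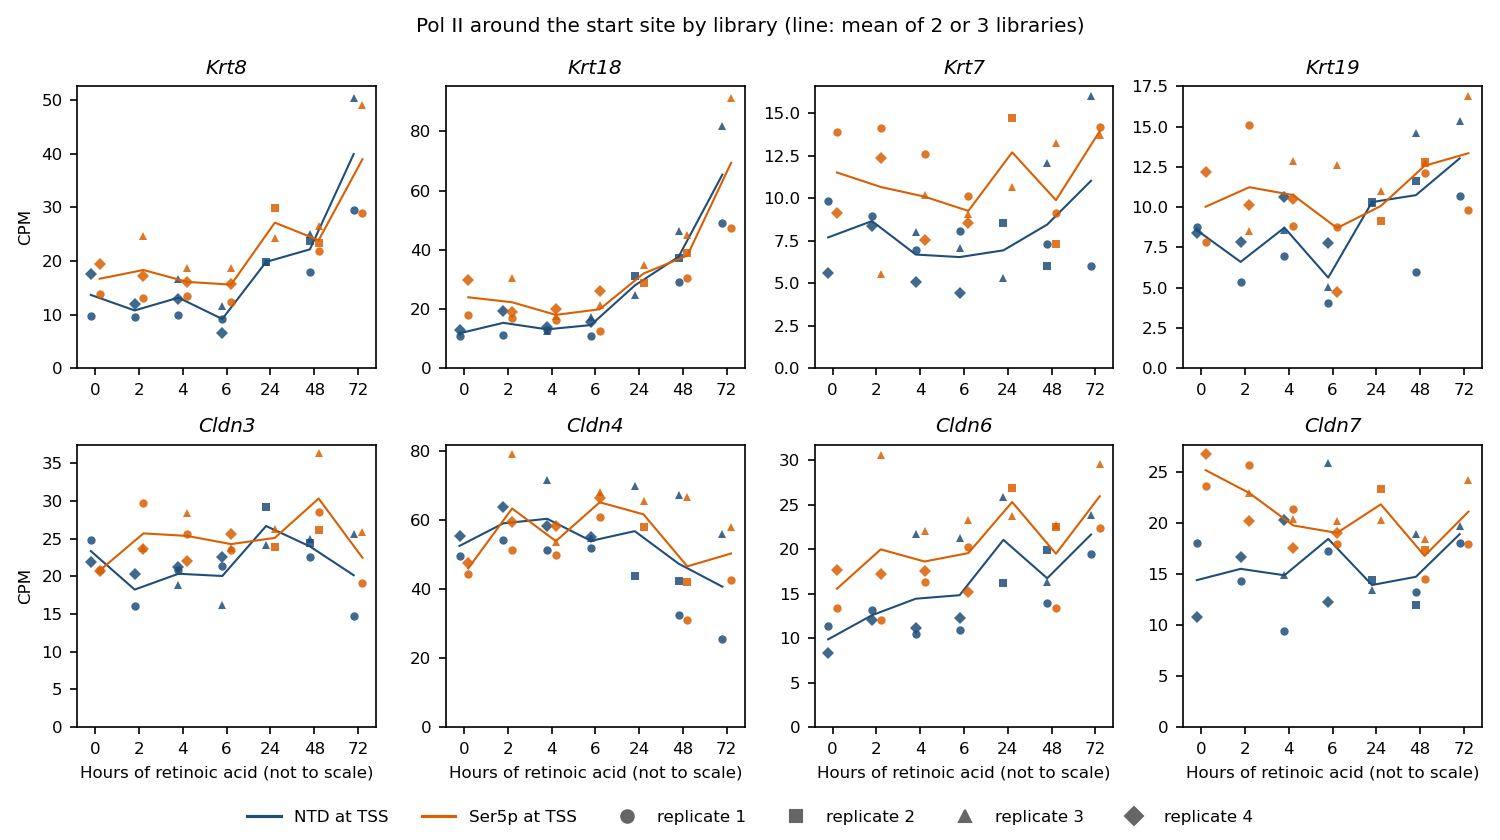
CPM (vertical axis) within 1 kb of the start site by hours of RA, for NTD (blue) and Ser5p (orange), with 1 point per library, a marker shape per replicate number and lines through the means of 2 or 3 libraries. Krt8 and Krt18 are highest at 72 h, where NTD at Krt18 is 48.9 and 81.8 CPM, and Cldn4 keeps libraries between 25.5 and 71.5 CPM.

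The serine 5 form rose at the same pair of promoters and was called at 72 h. Ser5p at Krt18 was 18.1 and 29.9 CPM at 0 h, 12.4 to 30.6 at 2 to 6 h, 29.0 and 35.0 at 24 h, 30.3, 38.9 and 44.9 at 48 h, then 47.5 and 91.3 at 72 h. The replicate 4 library of 0 h lay among those of 24 h, and the change at 24 h was 0.46 ± 0.30 (adjusted p = 0.286). At 48 h it was 0.71 ± 0.27 (adjusted p = 0.0834) and at 72 h 1.56 ± 0.28 (adjusted p = 2.31e-04). Ser5p at Krt8 was 13.9 and 19.5 CPM at 0 h, 12.4 to 24.7 at 2 to 6 h, 29.97 and 24.4 at 24 h, 21.9, 23.4 and 26.5 at 48 h, then 28.9 and 49.1 at 72 h, a change of 1.25 ± 0.28 (adjusted p = 0.00291). Here every library from 24 h on was above both 0 h libraries. Both calls rested on the 72 h library of replicate 3: without it the change was 1.02 (adjusted p = 0.0889) for Krt18 and 0.82 (adjusted p = 0.253) for Krt8. Krt8 was also not called without the 0 h library of replicate 1 (1.01, adjusted p = 0.0684). The difference between Ser5p and NTD was tested as an interaction of antibody and time. For Krt18 at 72 h the Ser5p change minus that of NTD was -0.98 ± 0.43 on the log2 scale, which did not pass (adjusted p = 0.726, unadjusted p = 0.0266). At 24 h it was -0.78 ± 0.45 (adjusted p = 0.957, unadjusted p = 0.0878) and at 48 h -0.99 ± 0.42 (adjusted p = 0.477, unadjusted p = 0.0230). No member passed in edgeR at 72 h, where 0.0884% of all transcripts did, and Krt18 was the 1 member with an unadjusted p under 0.05. The earlier call of NTD at Krt18 is therefore not shown to be a difference between the forms.

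Over the gene bodies the pair rose too. NTD over Krt18 was 3.08 and 2.88 CPM at 0 h, 7.83 and 8.63 at 24 h, 5.55, 10.4 and 11.4 at 48 h, then 12.3 and 26.6 at 72 h, with 1.97 to 4.43 CPM between 2 and 6 h. All libraries from 24 h on lay above all earlier ones. The change was 1.47 ± 0.43 at 24 h (adjusted p = 0.202), 1.61 ± 0.41 at 48 h (adjusted p = 0.0405) and 2.72 ± 0.42 at 72 h (adjusted p = 0.00246). The 48 h call was near the threshold and was lost on leaving out any 1 of 9 libraries: both of 0 h, both of 24 h, replicates 2 and 3 of 48 h, replicates 3 and 4 of 6 h and replicate 4 of 4 h, at changes of 1.43 to 1.65 and adjusted p of 0.0517 to 0.363. The 72 h change was 2.67 (adjusted p = 0.0529) without the 0 h library of replicate 4 and 2.04 (adjusted p = 0.0153) without the 72 h library of replicate 3. NTD over Krt8 was 4.80 and 5.17 CPM at 0 h, 10.97 and 10.8 at 24 h, 8.67, 10.7 and 11.1 at 48 h, then 9.93 and 25.9 at 72 h, with 3.99, 9.34 and 5.70 at 4 h. The change was 1.86 ± 0.38 at 72 h (adjusted p = 0.0125). It was 0.99 (adjusted p = 0.161) without the 72 h library of replicate 3, 1.81 (adjusted p = 0.110) without the 0 h library of replicate 1 and 1.92 (adjusted p = 0.115) without that of replicate 4. Without both doubted NTD libraries, the body changes at 72 h were 1.99 (adjusted p = 0.127) for Krt18 and 1.05 (adjusted p = 0.406) for Krt8, and none of the 8 genes was called over its body on the libraries left.

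Ser2p, the elongating form, was 2.27 and 2.02 CPM over Krt18 at 0 h, 1.94 to 3.29 at 2 to 6 h, 5.94 and 5.83 at 24 h, 4.74, 5.77 and 6.79 at 48 h, then 6.56 and 11.2 at 72 h, and no library from 24 h on overlapped one before. The changes were 1.45 ± 0.27 (adjusted p = 0.0124), 1.42 ± 0.25 (adjusted p = 0.00928) and 2.04 ± 0.26 (adjusted p = 0.00106, 4.12-fold). Over bodies in Ser2p the 8 reference genes summed to 128 and 169 CPM at 0 h and to 267 and 286 at 24 h. The part of such a shift in the 24 h call of Krt18 was not tested. The 72 h call was kept under every alternative tried, with a change of 1.61 (adjusted p = 0.0145) without replicate 3. The 24 h call was lost without the 24 h library of replicate 3 (1.47, adjusted p = 0.132) or the 0 h library of replicate 4 (1.37, adjusted p = 0.205), and the 48 h call without the 0 h library of replicate 1 or of replicate 4 (adjusted p = 0.103 and 0.162). Ser2p over Krt8 was 5.09 and 4.42 CPM at 0 h, 4.46, 7.27 and 5.52 at 2 h, 9.04 and 8.05 at 24 h, 4.89, 7.75 and 8.05 at 48 h, then 7.07 and 13.1 at 72 h. The replicate 3 library of 2 h was above the replicate 1 library of 72 h. The change at 72 h, 1.09 ± 0.29, did not pass (adjusted p = 0.0724), but DESeq2 gave 1.10 (adjusted p = 0.0133), and without the 72 h library of replicate 1 it was 1.47 (adjusted p = 0.00725). Without that of replicate 3 it was 0.57 (adjusted p = 0.666). Whether Ser2p changed otherwise than NTD over the body was tested in the same way. At 72 h the difference was -0.65 ± 0.54 for Krt18 and -0.75 ± 0.52 for Krt8. No member passed in edgeR at 72 h, where 0% of all transcripts did, and Krt19 and Cldn4 had an unadjusted p under 0.05. The log2 ratio of body to start-site NTD (limma, on CPM + 0.5) was -1.82 ± 0.22 (SD, n = 2) for Krt18 at 0 h. Body and start-site CPM are each scaled to their own total, so a negative value does not mean fewer reads over the body. At 72 h the ratio was -1.78 ± 0.24 (SD, n = 2), a change of 0.04 ± 0.29 (SE). For Krt8 the change was 0.08 ± 0.27. No member's ratio passed with limma at 72 h and none had an unadjusted p under 0.05, where 0.260% of all transcripts passed.

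**Figure D3:**
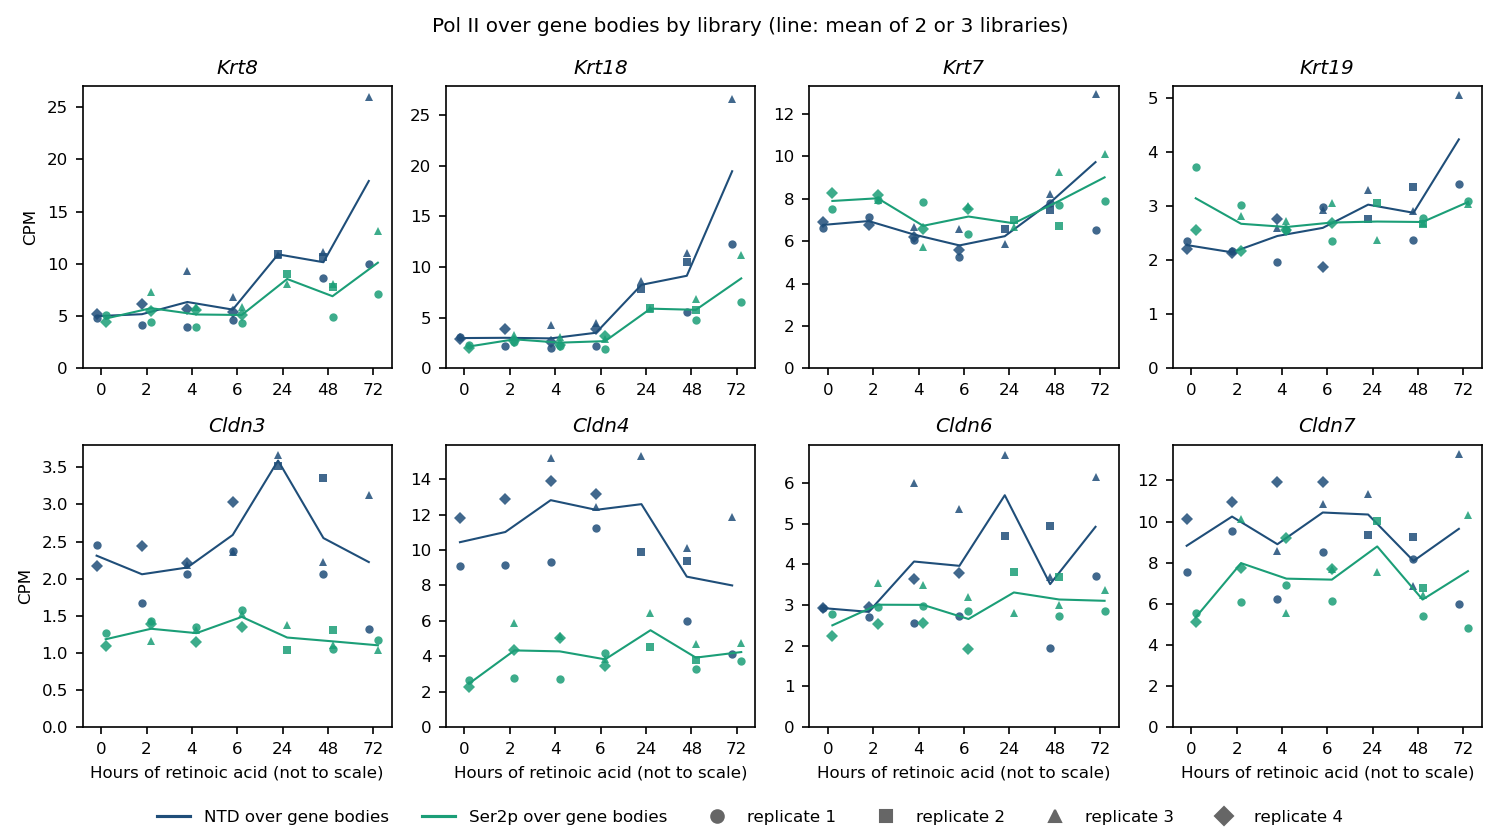
CPM (vertical axis) over gene bodies by hours of RA, for NTD (blue) and Ser2p (green), with 1 point per library, a marker shape per replicate number and lines through the means of 2 or 3 libraries. Both 72 h libraries lie above both 0 h libraries for Krt18 and Krt8 in NTD, with 12.3 and 26.6 CPM over Krt18 and 9.93 and 25.9 over Krt8 at 72 h, and the 2 libraries of 72 h lie far apart for most of the genes.

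The other 2 keratin genes gave a single call. NTD at the start site of Krt19, a type I keratin of ducts and glands, was 8.78 and 8.37 CPM at 0 h, then 10.7 and 15.3 at 72 h, a change of 0.66 ± 0.34 (adjusted p = 0.270). Over the body it was 2.35 and 2.21 CPM at 0 h, 2.37, 3.36 and 2.91 at 48 h, then 3.41 and 5.07 at 72 h. That change, 0.92 ± 0.25, was called at an adjusted p of 0.0486 and was lost on leaving out any 1 of 12 libraries: both of 0, 2 and 24 h, replicates 3 and 4 of 4 h, replicates 1 and 3 of 6 h and replicate 3 of 48 h and of 72 h. The adjusted p was then 0.0588 to 0.380, the latter with a change of 0.58 without the 72 h library of replicate 3. Ser2p over Krt19 was 3.73 and 2.57 CPM at 0 h, then 3.10 and 3.05 at 72 h (-0.03 ± 0.20, adjusted p = 0.962), and Ser5p at its start gave a change of 0.45 ± 0.37 (adjusted p = 0.514). The changes of Krt19 without that library were 0.34 in NTD and 0.01 in Ser5p at the start site and -0.01 in Ser2p. Krt7, a type II keratin of simple and transitional epithelium, was not called in any table. At 72 h its NTD start-site level was 6.03 and 16.0 CPM against 9.81 and 5.58 at 0 h, so 1 library lay between the controls and 1 above both. Over the body NTD was 6.52 and 12.9 CPM against 6.63 and 6.90, and Ser2p 7.89 and 10.1 against 7.50 and 8.29. The body change of NTD was 0.54 ± 0.22 (adjusted p = 0.180), 0.94 (adjusted p = 0.00100) without the 72 h library of replicate 1 and -0.06 (adjusted p = 0.920) without that of replicate 3. Without the latter its change was -0.29 in NTD and 0.27 in Ser5p at the start site (from 0.68 and 0.25) and -0.00305 in Ser2p (from 0.19). Krt7 also had the highest ratio of body to start-site CPM of the 4 keratins at 0 h, -0.12 ± 0.58 on the log2 scale (SD, n = 2). It was -1.70 ± 0.01 for Krt19, -1.31 ± 0.50 for Krt8 and -1.82 ± 0.22 for Krt18. Krt7 is the longest of the 4 genes (15404 bp, against 5117, 7632 and 3811). Body and start-site CPM are each scaled to their own total, so these are not ratios of read numbers.

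**Figure D4:**
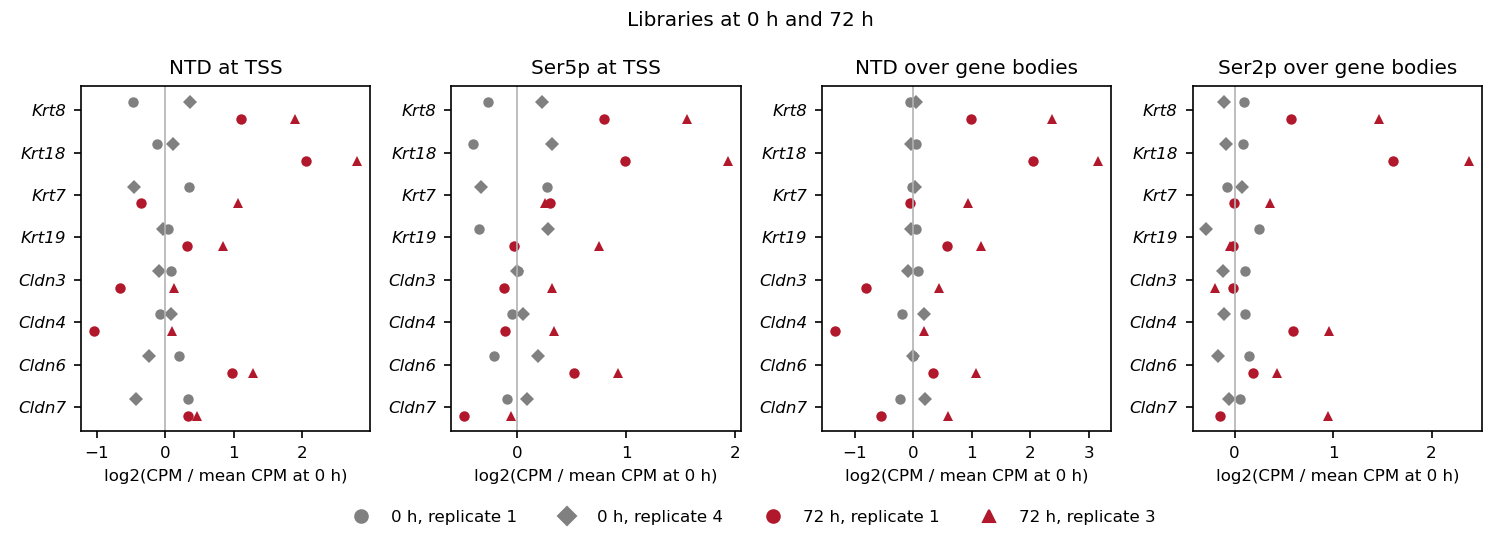
Each library at 0 h (grey) and 72 h (red) as log2 of its CPM over the mean CPM at 0 h (horizontal axis), for the 8 genes in the 4 tables, with replicate 1 as circles, replicate 3 as triangles and replicate 4 as diamonds. Both 72 h libraries lie above both 0 h libraries for Krt8 and Krt18 in all 4 tables, while those of Cldn3 and Cldn4 in NTD lie on either side of the controls or within them, with replicate 3 the higher one.

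Among the claudins Cldn6 was called at 1 table and time. NTD at its start site was 11.4 and 8.37 CPM at 0 h, 16.2 and 25.9 at 24 h, 13.9, 19.9 and 16.3 at 48 h, then 19.4 and 23.9 at 72 h. The change at 72 h was 1.18 ± 0.33 (adjusted p = 0.0146) and at 24 h 1.13 ± 0.33 (adjusted p = 0.0595). The libraries of replicate 3 were already high before: they gave 21.7 CPM at 4 h and 21.3 at 6 h, against 10.4 to 12.2 in the other libraries of those times, and there is no replicate 3 at 0 h. Within replicate 1, the level at 72 h was 1.71 times that at 0 h. The call was lost without the 72 h library of replicate 3 (1.01, adjusted p = 0.200), without the 0 h library of replicate 4 (0.96, adjusted p = 0.198), without both (0.77, adjusted p = 0.546) and in DESeq2 (1.19, adjusted p = 0.0521). Ser5p at Cldn6 was 13.4 and 17.7 CPM at 0 h, 12.1, 30.6 and 17.2 at 2 h, then 22.4 and 29.5 at 72 h (0.76 ± 0.32, adjusted p = 0.143), the 2 h library of replicate 3 being the highest of all. Over the Cldn6 body the changes at 72 h were 0.78 ± 0.41 for NTD (adjusted p = 0.328) and 0.31 ± 0.26 for Ser2p (adjusted p = 0.538). The Cldn6 changes without the replicate 3 library of 72 h were 0.55 in Ser5p, 0.34 in NTD over the body and 0.19 in Ser2p. Its neighbour Tnfrsf12a, whose window overlaps that of Cldn6, was also higher at 72 h, in NTD at the start site (1.01 ± 0.23, adjusted p = 0.00180) and in Ser5p (0.94 ± 0.29, adjusted p = 0.0315). Without the 72 h library of replicate 3 its changes were 0.64 (adjusted p = 0.200) and 0.51 (adjusted p = 0.581). The part of that neighbour in the Cldn6 result was not tested.

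Cldn4 had the most NTD per length of the 8 genes in untreated cells and did not pass the test at its start site. In Ser2p FPKM at 0 h Cldn7 (2.48 ± 0.178) had the higher mean, against 1.96 ± 0.239 for Cldn4. NTD there was 49.6 and 55.4 CPM at 0 h, 43.7 and 69.9 at 24 h, 32.5, 42.4 and 67.1 at 48 h, then 25.5 and 55.9 at 72 h. At 48 and 72 h the replicate 1 library was the lowest and the replicate 3 library the highest, the latter above both controls, and the change at 72 h was -0.30 ± 0.26 (adjusted p = 0.570). Within replicate 1 the 72 h level was 0.513 times that at 0 h at the start site and 0.455 times over the body in NTD, but 0.958 times in Ser5p and 1.41 times in Ser2p. Without the 72 h library of replicate 3 the NTD change was -1.03 (adjusted p = 0.0586) at the start site and -1.34 (adjusted p = 0.0837) over the body, where it was -0.35 ± 0.37 (adjusted p = 0.680) with it. Without both doubted NTD libraries the start-site change was -0.96 (adjusted p = 0.180). None of these passed. The Ser5p change was 0.13 ± 0.26, and -0.10 without replicate 3. Ser2p over the Cldn4 body was 2.64 and 2.27 CPM at 0 h, 2.78, 5.86 and 4.35 at 2 h, 2.70, 5.12 and 5.01 at 4 h, 4.20, 3.83 and 3.44 at 6 h, 4.50 and 6.44 at 24 h, 3.31, 3.78 and 4.68 at 48 h, then 3.71 and 4.76 at 72 h. The 2 libraries of 0 h were the lowest of the 18, and the highest was the replicate 3 library of 24 h. The change was called at 24 h (1.16 ± 0.33, adjusted p = 0.0368), as was that of 13.0% of all transcripts, and was not at 72 h (0.79 ± 0.34, adjusted p = 0.238), when it was 0.60 without replicate 3. In Ser2p the 8 reference genes were higher at 24 h too, with sums of 267 and 286 CPM against 128 and 169 at 0 h. The part of such a shift in the 24 h call of Cldn4 was not tested. The 24 h call was lost on leaving out any 1 of the 4 libraries at 0 and 24 h, with a change of 0.87 (adjusted p = 0.221) without the 24 h library of replicate 3 and of 1.06 (adjusted p = 0.289) without the 0 h library of replicate 4. The difference between Ser2p and NTD over the Cldn4 body at 72 h was 1.17 ± 0.56 and did not pass (adjusted p = 1.000).

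Cldn3, the neighbour of Cldn4, was not called in any table. NTD at its start site was 24.8 and 21.9 CPM at 0 h, then 14.7 and 25.6 at 72 h (-0.14 ± 0.26, adjusted p = 0.834), and its 72 h changes were 0.11 ± 0.26 in Ser5p, 0.01 ± 0.31 in NTD over the body and -0.10 ± 0.22 in Ser2p. They were, without the 72 h library of replicate 3, -0.64 in NTD at the start site, -0.12 in Ser5p, -0.80 in NTD over the body and -0.01 in Ser2p. Their adjusted p ranged from 0.287 to 0.998. Its Ser5p level was highest at 48 h, 28.5, 26.1 and 36.4 CPM against 20.8 and 20.7 at 0 h (0.55 ± 0.23, adjusted p = 0.106). Across the NTD start-site libraries Cldn3 and Cldn4 had a Pearson r of 0.21 on log2 CPM, where the Krt8 and Krt18 pair had 0.88 (17 libraries, a description). Cldn7 was not called either. NTD at its start site was 18.1 and 10.8 CPM at 0 h, then 18.1 and 19.8 at 72 h (0.43 ± 0.32, adjusted p = 0.481), and the Ser5p change was -0.24 ± 0.25 (adjusted p = 0.620). Ser5p at Cldn7 was lower at 48 h, 14.6 to 18.4 CPM against 23.6 to 26.8 at 0 h, but was not called. Its Ser2p body level was 5.55 and 5.13 CPM at 0 h, 10.0 and 7.55 at 24 h, then 4.83 and 10.3 at 72 h, a change of 0.71 ± 0.30 at 24 h (adjusted p = 0.0950) and 0.51 ± 0.31 at 72 h (adjusted p = 0.407). Over the body NTD gave 0.15 ± 0.32 at 72 h. Without the 72 h library of replicate 3 these changes were 0.37 and -0.47 at the start site in NTD and Ser5p and -0.57 and -0.14 over the body in NTD and Ser2p. The adjusted p then ranged from 0.460 to 0.958. The transcript with the most reads of Cldn7 differed between the start-site and the body tables, and its other transcript was not called at 72 h in any table.

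The authors' deposited table gives their own log2 fold changes and adjusted p-values. How those fold changes were estimated is not given in the sources used here. It lists an increase of Krt8 at 72 h in all 4 tables. For Krt18 it lists an increase at 48 h in both NTD tables, at 24 h in Ser2p and at 72 h in Ser5p. None is listed for the other 6 genes. The authors' own Ser2p change of Krt18 at 24 h was 0.35 (adjusted p = 0.0834), which did not pass. At 48 h that Ser2p change was 0.38 (adjusted p = 0.00567). In the authors' deposited table the NTD start-site change at 72 h was 1.66 (adjusted p = 2.33e-07) for Krt18, 1.19 (adjusted p = 0.0259) for Krt8 and 0.41 for Cldn6, which did not pass there. For Ser2p the authors' deposited table gives 0.49 (adjusted p = 0.0266) for Krt8 at 72 h, past the threshold that the edgeR fit missed, and for NTD over the body of Krt19 0.44 (adjusted p = 0.318).

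The rest of the epithelial programme was read from lists of genes at 72 h, with counts given in the order NTD at the start site, Ser5p, NTD over the body and Ser2p. Over all symbols 5.56%, 4.86%, 2.69% and 1.09% were called higher and 3.51%, 3.92%, 1.58% and 0.366% lower in that order. These shares are from the fit of all libraries. No such share is given for the fit without the 72 h library of replicate 3, which leaves a lone library at that time. Calls lost in that fit are therefore not shown to be particular to the listed genes. Of 16 other keratin genes, mostly of stratified epithelium, of which 14, 16, 16 and 16 were tested, edgeR called none higher (0, 0, 0 and 1 at an unadjusted p under 0.05). DESeq2 called none higher of the 1, 5, 15 and 8 to which it gave an adjusted p. Krt13, a keratin of mucosal epithelium, was lower in NTD at the start site (-1.69 ± 0.47, adjusted p = 0.0130), but not without the 72 h library of replicate 3 (-1.59, adjusted p = 0.156). The median change of these keratins was -0.50 there, against -0.06 over all symbols. Of 16 other claudin genes, of which 15, 16, 16 and 16 were tested, edgeR called none higher either (3, 1, 2 and 1 at an unadjusted p under 0.05), nor did DESeq2 of the 6, 9, 12 and 10 to which it gave an adjusted p. Their median in NTD at the start site was -0.13, but 0.17 without the 72 h library of replicate 3 and 0.05 with the authors' scale factors. Cldn14, a claudin of the inner ear and kidney, was lower in NTD over the body (-0.46 ± 0.12, adjusted p = 0.0361), and not without replicate 3 of 72 h (-0.32, adjusted p = 0.227).

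Of 16 tight junction and polarity genes 3, 3, 2 and 1 were called higher and none lower in the 4 tables, and 2, 2, 0 and 0 higher without the 72 h library of replicate 3. The median in NTD at the start site was 0.45, and 0.29 without it. Patj (1.28 ± 0.25, adjusted p = 4.64e-04) and Mpp5 (1.19 ± 0.22, adjusted p = 2.01e-04), which encode scaffolds of the Crumbs polarity complex, rose in NTD at the start site and in Ser5p, with or without that library. Lsr, a protein of tricellular junctions, rose over the body in NTD (0.89 ± 0.24, adjusted p = 0.0493) and Tjp1, a tight junction scaffold, in Ser2p (0.37 ± 0.08, adjusted p = 0.0288), and neither call was made without it (adjusted p = 0.492 and 0.378). Of 16 adherens junction and desmosome genes 4, 3, 1 and 1 were higher and 1, 1, 0 and 0 lower. Without replicate 3 of 72 h 2 were higher and 2 lower in NTD at the start site, and none in the other tables. Plec (2.04 ± 0.27, adjusted p = 3.79e-07), which links intermediate filaments to their anchors, and Dsc2 (1.69 ± 0.35, adjusted p = 6.72e-04), a desmosomal cadherin, rose in NTD at the start site, also without that library (2.13, adjusted p = 6.31e-06 and 1.87, adjusted p = 0.00349). Epcam, an adhesion molecule of epithelia and of stem cells, was lower there (-0.96 ± 0.31, adjusted p = 0.0366) and more so without that library (-1.79, adjusted p = 0.00582), but DESeq2 did not call it (adjusted p = 0.209). The calls of the catenin genes Jup and Ctnnb1 in Ser5p and of Ctnnd1 over the body, all higher, and of Pkp1, a desmosomal plaque gene, lower in Ser5p, were not made without that library.

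Of 16 epithelial regulators 2, 2, 1 and 0 were higher and 1, 3, 0 and 1 lower, and without replicate 3 of 72 h 1, 1, 1 and 0 higher and none lower. Elf3, an ETS factor of epithelia, rose in NTD at the start site (1.35 ± 0.23, adjusted p = 5.92e-05), in Ser5p (1.26 ± 0.24, adjusted p = 4.06e-04) and in NTD over the body (1.29 ± 0.17, adjusted p = 8.14e-04), with or without that library. Cited2, a transcriptional co-regulator, was higher at the start site in both forms, and Grhl1 in NTD, Tfap2a and Ovol1 in Ser5p and Grhl2 in Ser2p, factors of epithelial differentiation, were lower. None of these 5 was called without replicate 3 of 72 h. Filament genes and factors of the mesenchymal state were tested beside them. Among 10 such genes 6, 2, 4 and 1 were higher and 0, 1, 0 and 0 lower, and without replicate 3 of 72 h 3, 0, 1 and 0 were higher and 1 lower, over the body in NTD. The median in NTD at the start site was 1.05, and 0.51 without it. Vim, the gene of vimentin, the intermediate filament of mesenchymal cells, rose in NTD at the start site (1.58 ± 0.24, adjusted p = 5.50e-06), also without that library (1.27, adjusted p = 0.00343). Twist1, a mesenchymal factor, rose there (1.73 ± 0.32, adjusted p = 2.01e-04) and over the body (1.41 ± 0.33, adjusted p = 0.0267) but was not called without it (1.21, adjusted p = 0.104 and 1.11, adjusted p = 0.199), and the same held for Nes, the filament of neural progenitors, over the body and for Snai1, a repressor that binds E-boxes, in Ser5p and Ser2p. Pol II was higher at genes of both kinds of filament in the same cultures, and cells that carry both cannot be told apart from a mixture.

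Krt8 and Krt18 are also markers of cell types that RA can yield, so the marker sums are given beside them. The 10 markers of primitive and parietal endoderm summed to 95.6 to 117 CPM in NTD start-site libraries at 0 h, 118 to 132 at 24 h and 197 to 328 at 72 h. Of these, edgeR called 7 higher and 0 lower. Without replicate 3 of 72 h 7 were higher as well, and DESeq2 called 3 higher of the 6 to which it gave an adjusted p. In Ser5p they summed to 209 to 336 and 192 to 317 CPM at 0 and 72 h (2 higher and 3 lower). Over bodies they summed to 272 to 292 and 537 to 755 in NTD (7 higher and 0 lower) and to 288 to 332 and 454 to 636 in Ser2p (3 higher and 0 lower). Without replicate 3 of 72 h those counts were 2 higher and 0 lower in Ser5p, 9 higher and 0 lower over bodies in NTD and 2 higher and 0 lower in Ser2p. The 10 trophoblast markers summed to 86.1 to 91.9 and 92.4 to 105 CPM in NTD at the start site (1 higher and 0 lower) and to 175 to 272 and 129 to 135 in Ser5p (0 higher and 4 lower). Over bodies their sums were 65.9 to 68.2 and 71.6 to 73.2 in NTD (1 higher and 0 lower) and 73.5 to 79.9 and 71.5 to 75.5 in Ser2p (0 higher and 0 lower). None was called in any of the 4 tables without replicate 3 of 72 h. Surface ectoderm markers, which include Krt5, Krt14 and Krt15 of the keratin list, summed to 43.4 to 52.2 and 48.1 to 53.6 CPM in NTD at the start site (0 higher and 0 lower) and to 110.2 to 184 and 64.9 to 91.7 in Ser5p (0 higher and 2 lower). Fibroblast markers summed to 49.4 to 59.9 and 54.6 to 63.0 in NTD at the start site (0 higher and 0 lower) and to 98.1 to 115 and 80.2 to 91.1 in Ser5p (0 higher and 1 lower). Neural progenitor markers summed to 82.1 to 88.5 and 117 to 131 CPM in NTD at the start site (1 higher and 0 lower) and to 166 to 355 and 129.8 to 168 in Ser5p (0 higher and 4 lower, with a median change of -1.08). Over bodies the surface ectoderm, fibroblast and neural markers gave 0 higher and 0 lower, 0 higher and 0 lower and 1 higher and 0 lower in NTD, and none in either direction in Ser2p by edgeR. There 3, 0 and 2 had an unadjusted p under 0.05, and DESeq2 called 1 neural marker higher. Without replicate 3 of 72 h the calls left in these 3 lists were 1 neural marker higher in NTD at the start site and 1 surface ectoderm marker lower in Ser5p. At an unadjusted p under 0.05 edgeR gave 1 surface ectoderm and 0 fibroblast markers at the start site in NTD and 3 trophoblast markers in Ser2p, and DESeq2, which gave an adjusted p to 2, 0 and 6 markers of these lists there, called none. No marker was at 0 reads in all libraries of any of these times. The part of such cells in the rise of the keratin pair was not tested. Of 7, 7, 8 and 8 reference genes tested, 1, 2, 1 and 2 were called higher and none lower, with median changes of 0.09, 0.34, 0.20 and 0.41. Actb, among them in all 4 tables, was not called in any without replicate 3 of 72 h, and nor was any other reference gene, with medians of -0.24, 0.12, -0.15 and -0.12.

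Of 17 neighbours with a start within 50 kb of a member, 3 were called at 72 h in NTD at the start site (2 higher and 1 lower) and 3 in Ser5p (2 higher and 1 lower), where 9.13% and 8.95% of all transcripts were. None was over gene bodies in edgeR, with 2 in NTD and 3 in Ser2p at an unadjusted p under 0.05, where DESeq2 called 1 of 17 and 0 of 15 with an adjusted p. Beside Tnfrsf12a these were Dvl2 (higher) and Eif5a (lower, -0.83 ± 0.22, adjusted p = 0.0102) in NTD, and Gabarap (higher) and Tmem270 (lower) in Ser5p, and of these 6 calls that of Eif5a, a translation factor gene near Cldn7, was the 1 kept without replicate 3 of 72 h. The nearest other gene of the tables to the keratin pair, Eif4b, 45557 bp from Krt18, was not called in NTD at the start site (-0.60 ± 0.22, adjusted p = 0.0845). The genes most like each member over the 18 Ser2p body libraries, by Pearson r of log2 CPM, were for Krt18 Cyr61 (0.96), Myl12a (0.96) and Csrp1 (0.96), and for Krt8 Tpm1 (0.94), Pogz (0.93) and Pan3 (0.93). For Cldn4 they were Med25 (0.90), Bhlha15 (0.90) and Rad52 (0.89), and for Cldn7 Lmnb1 (0.90), Zfp513 (0.90) and Nisch (0.90). For Cldn6 they were Pex19 (0.88), Scmh1 (0.82) and Slc7a6 (0.79), for Cldn3 Ppp1r3d (0.75), Hormad1 (0.71) and Slc39a3 (0.70), for Krt7 Krt33b (0.81), Slc22a28 (0.78) and Mir466h (0.77) and for Krt19 Reg3g (0.77), Lpin3 (0.72) and Gorab (0.72). These are the highest of 17956 symbols and describe shared time and depth. Krt8 and Krt18 had an r of 0.88 with each other there, 0.96 in NTD over bodies and 0.93 in Ser5p, the highest of the 28 pairs of members in each table.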

How the data were processed

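Pol II ChIP-seq was analysed in 53 of the 157 samples in the labels, and the other samples were not analysed here. Per the headers and names of the deposited tables, the authors counted reads per RefSeq transcript within 1 kb of the start site and over gene bodies. No source used here names the read counter or the body window. The submitters' processing notes name Bowtie2, SAMtools, MACS2, DESeq2, mm10 and dm6, without their order. Per the file headers the deposited tables hold the authors' raw counts, a scaled signal, FPKM over bodies, log2 fold changes with adjusted p-values, and 14 further value columns that were not used. By its values the signal is the count times 1 factor per library, of a source not given here. Groups came from the titles.

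Raw counts were tested with edgeR 4.0.16 (R 4.3.3), with TMM scaling, filterByExpr (minimum count 10), quasi-likelihood F tests with time as a factor over all libraries of a table, and Benjamini-Hochberg adjustment over 31868 (NTD) and 32774 (Ser5p) start-site transcripts and 31843 (NTD) and 32123 (Ser2p) body transcripts. All 8 genes passed the filter in each table. Rows without a symbol held 0.0166% to 0.0761% of counts. Common coefficients of variation were 0.138, 0.141, 0.118 and 0.0899 in the same order, and counting error adds to these at low counts. The ratio of body to start site used limma 3.58.1 on log2(CPM + 0.5). The scripts were tested on simulated data. The same reads can be counted for several transcripts of a gene.

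Alternatives were DESeq2 1.42.0, DESeq2 or the authors' size factors in edgeR, no filter, a replicate block, each library left out, the other transcript, and both NTD libraries that earlier work doubted left out. List counts were also made with DESeq2, the authors' factors and without replicate 3 of 72 h, chosen after seeing the data. The named genes are the 8 members, per list the 2 called genes with the largest rise and fall at 72 h, neighbours within 50 kb, and the 3 genes of most like Ser2p pattern. Nes, Twist2, Krt5, Krt14, Krt15, Tfap2a, Tfap2c, Grhl3 and Trp63 are in more than 1 list. The members and lists were chosen with earlier results of these data known.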

Additional observations from a re-analysis of the deposited data

How the results depend on the processing

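Of 930 counts of called members under an alternative, 882 stayed within 1.5 times the value reported, and no change called in the report reversed. Most of these counts were 0 in the fit reported and under every alternative, as at 2, 4 and 6 h and for antibody differences and ratios. Every count that moved was at 24, 48 or 72 h. In NTD over bodies at 48 h the count moved under 13 of 23 alternatives. At 24 h it moved under 10 of 23 in NTD at the start site and 7 of 23 in Ser2p. Of 345 repeats of single called changes, 288 were called again. In NTD at the start site the 24 h count of 1 became 2 with the authors' scale factors and 0 with DESeq2, and the 48 h count of 1 became 2 without both doubted libraries. In Ser5p the counts of 0 at 24 and 48 h became 3 and 2 with the authors' factors, which shift the median of all transcripts upward by 0.12 to 0.40 in NTD and 0.14 to 0.47 in Ser5p at the start site from 4 h on. Over bodies in NTD, DESeq2 called 1 at 24 h, the 48 h count became 0 with the authors' factors or without both doubted libraries, and the 72 h count of 3 became 0 without both. In Ser2p the 72 h count of 1 became 2 with DESeq2. The cause was not tested.

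Leaving out 1 library gave 0 to 2, 1 to 1 and 1 to 3 calls at 24, 48 and 72 h in NTD at the start site, 0 to 1 and 0 to 2 at 48 and 72 h in Ser5p, 0 to 2 and 0 to 4 at 48 and 72 h in NTD over bodies, and 0 to 4, 0 to 1 and 1 to 2 at 24, 48 and 72 h in Ser2p.

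The labels do not say that a replicate number marks a shared culture or day, so the numbers were not taken to pair the libraries. Whether same-numbered libraries share one was not tested. Deviations of same-numbered libraries correlated over 0.1 in 18 of 32, 18 of 37, 26 of 32 and 17 of 37 pairs (NTD and Ser5p at the start site, NTD and Ser2p over bodies). With different numbers 15 of 91, 21 of 101, 24 of 91 and 33 of 101 pairs did, a smaller share in each. The medians were 0.11, 0.10, 0.19 and 0.06, against -0.05, -0.03, -0.10 and -0.01 for libraries with different numbers. With the replicate block the counts became 0 at 24 h in NTD at the start site, and 0 at 24 h and 2 at 72 h in Ser2p. Krt18 was then 0.94 (adjusted p = 0.206) at 24 h in NTD at the start site and 1.13 (adjusted p = 0.0879) in Ser2p, Cldn6 0.67 (0.214), Krt19 over the body 0.70 (0.136), Cldn4 in Ser2p 0.97 (0.296) and Krt8 at 72 h in Ser2p 0.86 (0.0267).

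Over all transcripts at 72 h, calls in NTD at the start site were 2910, and 1214 with the authors' factors or 802 without both doubted libraries. Over bodies in NTD they were 1438, with 2226 by DESeq2 and 189 without both, and in Ser2p 520, with 1091 by DESeq2 and 314 with the block. Of 40 calls of list genes and neighbours, 30 were kept by DESeq2, 31 with the authors' factors and 12 without replicate 3 of 72 h. With 16.1 to 111 reads per start-site window in NTD, small changes of these genes were not detectable.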
